A study of Mus musculus with 9 samples.

Results

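Methylation of CpG dinucleotides was measured at 10 mouse genes whose products mark or shape the subsets of splenic B cells: Cr2, Fcer2a, Cd1d1, Notch2, Dtx1, S1pr3, Mzb1, Klf2, Cd9 and Tnfrsf13c. The genes were chosen by name for their known roles and not by a measured value, and they are 10 of 21887 protein-coding genes on chromosomes 1 to 19, X and Y. Each was read over its span and 5000 bp on each side, in GRCm38 coordinates.

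The source was splenic B cells of mice carrying a point mutation of Kmt2d, an A>T change at chr15:98835228 that replaces an isoleucine by asparagine (Ile5482Asn) in a histone H3 lysine 4 methyltransferase. The mice were homozygous (HOM), heterozygous (HET) or wild type (WT), and no treatment was given. B cells were enriched from whole spleen suspensions by magnetic removal of other cells, so the libraries hold all splenic B cell subsets together, and their DNA (200 ng, in fragments near 800 bp) was treated with bisulphite and read from both ends over 150 bp. The deposited counts hold 1 library per genotype, whereas the labels list 2 B cell samples for each, and no source used here says whether a library is 1 of these or both pooled. There is thus no replicate spread, and every test below compares libraries and not genotypes. The HET and HOM libraries also carry the word ENU, a chemical mutagen, in their names, and the WT library does not.

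Marginal zone B cells sit beside the marginal sinus of the spleen, carry much complement receptor CD21 and CD1d and little CD23, and answer blood-borne antigens fast. Their formation depends on signalling through Notch2, whose cleaved intracellular part binds the DNA-binding factor RBPJ and switches on targets such as Dtx1. Follicular B cells, the larger subset, carry CD23 and recirculate between follicles, and Klf2 is known to hold cells in the follicular state. Mature B cells of both subsets need survival signals through the BAFF receptor encoded by Tnfrsf13c. DNA methylation at a start or an enhancer is usually low where these are in use.

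Across the genome the libraries held 215454437, 282430649 and 200824258 CpG reads in HOM, HET and WT, where a CpG read is 1 read at 1 CpG, or 9.85, 12.9 and 9.18 per CpG. The mean level was 72.3% in HOM, 75.6% in HET and 76.0% in WT, and the 10 genes were covered by 9.93 to 14.7 reads per CpG in HOM, 11.1 to 18.2 in HET and 8.23 to 12.8 in WT. A level is the share of CpG reads that were methylated, pooled over a region. In a mix of cells a level between 0% and 100% does not tell a share of methylated cells from partial methylation within each cell. A region was called different between libraries when it differed by at least 10 percentage points and had an adjusted p below 0.05, from Fisher's exact test (two-sided) on its reads with Benjamini-Hochberg adjustment over all regions of its kind. Brackets hold 95% intervals, Wilson's for a level and Newcombe's for a difference, and they cover counting error only.

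The annotated starts of most of these genes held little methylation, as most starts in the genome do. RefSeq promoters, from 250 bases before to 50 bases after an annotated start in GRCm38.p6, were found for 8 of the 10 genes, all but Cd1d1 and Mzb1. In 7 of these 8 the outermost promoter was below 10% methylated in every library, and the exception was Fcer2a. Below are the promoters of Cr2 and Fcer2a, which encode the receptors used to tell the subsets apart, of Notch2 and its target Dtx1, and of Klf2. Each runs 5′ to 3′ with its CpGs in capitals, so that the scarcity of CpGs in Fcer2a can be seen beside the others.
Cr2 (chr1:195176670-195176969, minus strand): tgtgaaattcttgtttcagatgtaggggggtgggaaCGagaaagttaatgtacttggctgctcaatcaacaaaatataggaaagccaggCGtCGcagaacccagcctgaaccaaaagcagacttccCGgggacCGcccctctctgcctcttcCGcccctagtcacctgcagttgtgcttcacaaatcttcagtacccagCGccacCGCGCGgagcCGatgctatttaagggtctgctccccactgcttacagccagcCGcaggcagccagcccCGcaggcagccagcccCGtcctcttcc
Fcer2a (chr8:3694125-3694424, minus strand): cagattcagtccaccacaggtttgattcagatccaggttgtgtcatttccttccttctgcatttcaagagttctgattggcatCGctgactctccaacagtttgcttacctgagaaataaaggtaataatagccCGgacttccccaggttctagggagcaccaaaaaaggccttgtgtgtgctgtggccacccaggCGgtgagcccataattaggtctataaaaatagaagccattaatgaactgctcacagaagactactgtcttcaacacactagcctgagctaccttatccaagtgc
Notch2 (chr3:98013288-98013587, plus strand): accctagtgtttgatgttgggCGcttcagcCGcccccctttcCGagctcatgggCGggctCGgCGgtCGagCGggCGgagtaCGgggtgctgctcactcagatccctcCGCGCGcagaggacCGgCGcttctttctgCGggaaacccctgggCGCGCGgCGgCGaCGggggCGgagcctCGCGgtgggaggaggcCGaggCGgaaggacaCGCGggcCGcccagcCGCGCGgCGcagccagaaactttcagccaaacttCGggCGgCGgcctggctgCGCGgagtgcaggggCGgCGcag
Dtx1 (chr5:120711620-120711919, minus strand): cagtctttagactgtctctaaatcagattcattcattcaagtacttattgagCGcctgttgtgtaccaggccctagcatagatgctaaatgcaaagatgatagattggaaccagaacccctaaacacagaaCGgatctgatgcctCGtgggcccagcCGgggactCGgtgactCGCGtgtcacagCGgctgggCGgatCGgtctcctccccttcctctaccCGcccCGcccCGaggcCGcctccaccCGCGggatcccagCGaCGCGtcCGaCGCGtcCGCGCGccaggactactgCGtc
Klf2 (chr8:72318812-72319111, plus strand): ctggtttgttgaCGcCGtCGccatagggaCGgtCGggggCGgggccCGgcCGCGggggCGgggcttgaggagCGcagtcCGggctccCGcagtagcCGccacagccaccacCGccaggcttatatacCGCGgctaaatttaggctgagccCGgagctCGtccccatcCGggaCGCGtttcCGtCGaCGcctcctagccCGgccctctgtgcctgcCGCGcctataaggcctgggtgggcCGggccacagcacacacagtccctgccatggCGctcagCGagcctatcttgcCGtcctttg

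The Notch2 promoter holds 41 CpGs, the Klf2 promoter 32, the Dtx1 promoter 26, the Cr2 promoter 14 and this Fcer2a promoter 3, against a median of 7 and an upper quartile of 20 over 32851 RefSeq promoters. The median level of the promoters tested in the genome was 1.73% in HOM, 1.88% in HET and 1.92% in WT. Of the promoters not printed, Cd9 has 18 CpGs, S1pr3 14 and Tnfrsf13c 12. Methylated reads in the Notch2 promoter were 3 of 491 in HOM, 0 of 536 in HET and 0 of 345 in WT. A count of 0 allows a level of up to 0.560% in HET and 0.870% in WT. Here and below, such a limit for a count of 0 is 3 divided by the reads. It is not the upper end of Wilson's interval, which was 0.712% in HET and 1.10% in WT at this promoter. The Klf2 promoter had 0 of 237 methylated reads in HOM (up to 1.27%), 1 of 224 in HET and 0 of 117 in WT (up to 2.56%). The Cr2 promoter had 0 of 114 in HOM (up to 2.63%), 0 of 140 in HET (up to 2.14%) and 1 of 139 in WT. These 3 promoters were thus at or near 0 in every library. The Dtx1 promoter stood at 4.04%, 2.75% and 3.52% in HOM, HET and WT, and the Cd9 promoter at 1.11%, 0.820% and 0.510%. Tnfrsf13c had 4 of 157 methylated reads in HOM, 4 of 131 in HET and 0 of 93 in WT (up to 3.23%), and S1pr3 had 8 of 98 in HOM, 8 of 203 in HET and 2 of 77 in WT. None of the 7 was called in any comparison, where 1.13% of 21863 promoters were called between HOM and WT, 0.860% between HET and WT and 1.21% between HOM and HET.

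Short sequence cores of factors that act in B cells were looked for in these promoters on both strands. The RBPJ core TGGGAA was present in 3 of the 8 outermost promoters (Cr2, S1pr3 and Cd9), against 25.6% of all promoters, and its letters were not in the windows of Notch2 and Dtx1. The KLF core CACCC was in 8 of 8, against 57.5% of all. The ETS core GGAAG, which can share letters with TGGGAA, was in 5 of 8, against 71.4%, and the E box CANNTG in 5 of 8, against 72.3%. A match describes the letters and not a bound site.

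Few regions of these genes differed between the libraries by the call. Of the 20 gene-end windows, which reach from 1000 bp outside to 500 bp inside each end of a span, 0 were called between HOM and WT, against 5.32% of all gene-end windows. Between HET and WT 0 of 20 were called, against 2.66%, and between HOM and HET 0 of 20, against 4.53%. The interval of the difference, with no adjustment, left out 0 in 3 windows for HOM minus WT, 3 for HET minus WT and 5 for HOM minus HET. Of the 10 gene bodies, 0 were called between HOM and WT (3.31% of all bodies), 1 between HET and WT (1.32% of all, or 0.797% in its direction, lower in HET) and 0 between HOM and HET (2.41%). Of the 20 flanks, which fill the rest of the 5000 bp outside a span, 1 was called between HOM and WT (5.99% of all flanks, or 5.52% in its direction, lower in HOM), 0 between HET and WT (2.25%) and 0 between HOM and HET (4.15%). The 10 genes held 60 low-methylated runs, each with at least 4 CpGs over at least 100 bp and a running level over 3 CpGs below 50% in the mean of the libraries. Of the 56 runs deep enough to test, 1 was called between HOM and WT, against 4.51% of all runs, and it was higher in HOM, as were 2.83% of all. Between HET and WT 2 were called, against 3.56%, of which 1 was higher in HET (1.57% of all) and 1 lower (1.99%). Between HOM and HET 3 were called, against 4.46%, each higher in HOM (2.85% of all). These shares lie near or below those of the genome, with the 1 of 10 bodies resting on a single gene. The 8 called regions belong to Fcer2a, Dtx1, Mzb1 and Tnfrsf13c. Neighbouring CpGs on 1 read are not independent, and after each region's counts were divided by the CpGs per read 0 of the 8 was called, with adjusted p from 0.472 to 1 in Fisher's exact test. That setting left few calls anywhere. It called 0.199% of all bodies (HET against WT) and 0.0681% of all flanks (HOM against WT). Of all runs it called 0.0748%, 0.0676% and 0.0760% in HOM against WT, HET against WT and HOM against HET.

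**Figure D1:**
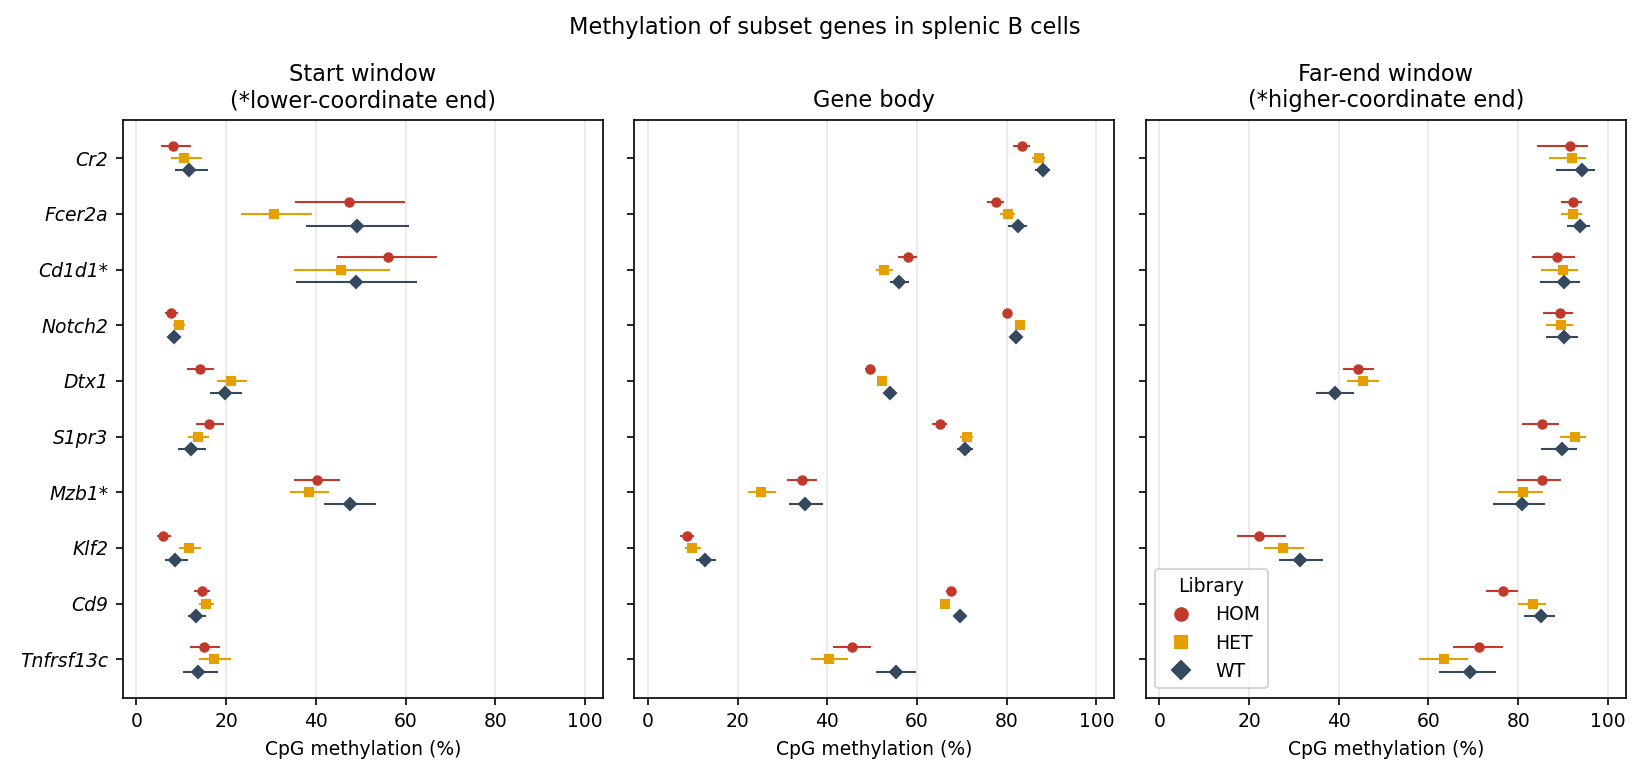
CpG methylation (%) of the 10 genes in HOM, HET and WT libraries at the start window, the gene body and the far-end window, with 95% counting intervals. The 8 known starts lie near the low end except that of Fcer2a, bodies run from Klf2 at 8.61%, 9.91% and 12.7% to Cr2 at 83.4%, 87.2% and 88.1%, and for Cd1d1 and Mzb1 the lower- and higher-coordinate ends are drawn.

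**Figure D2:**
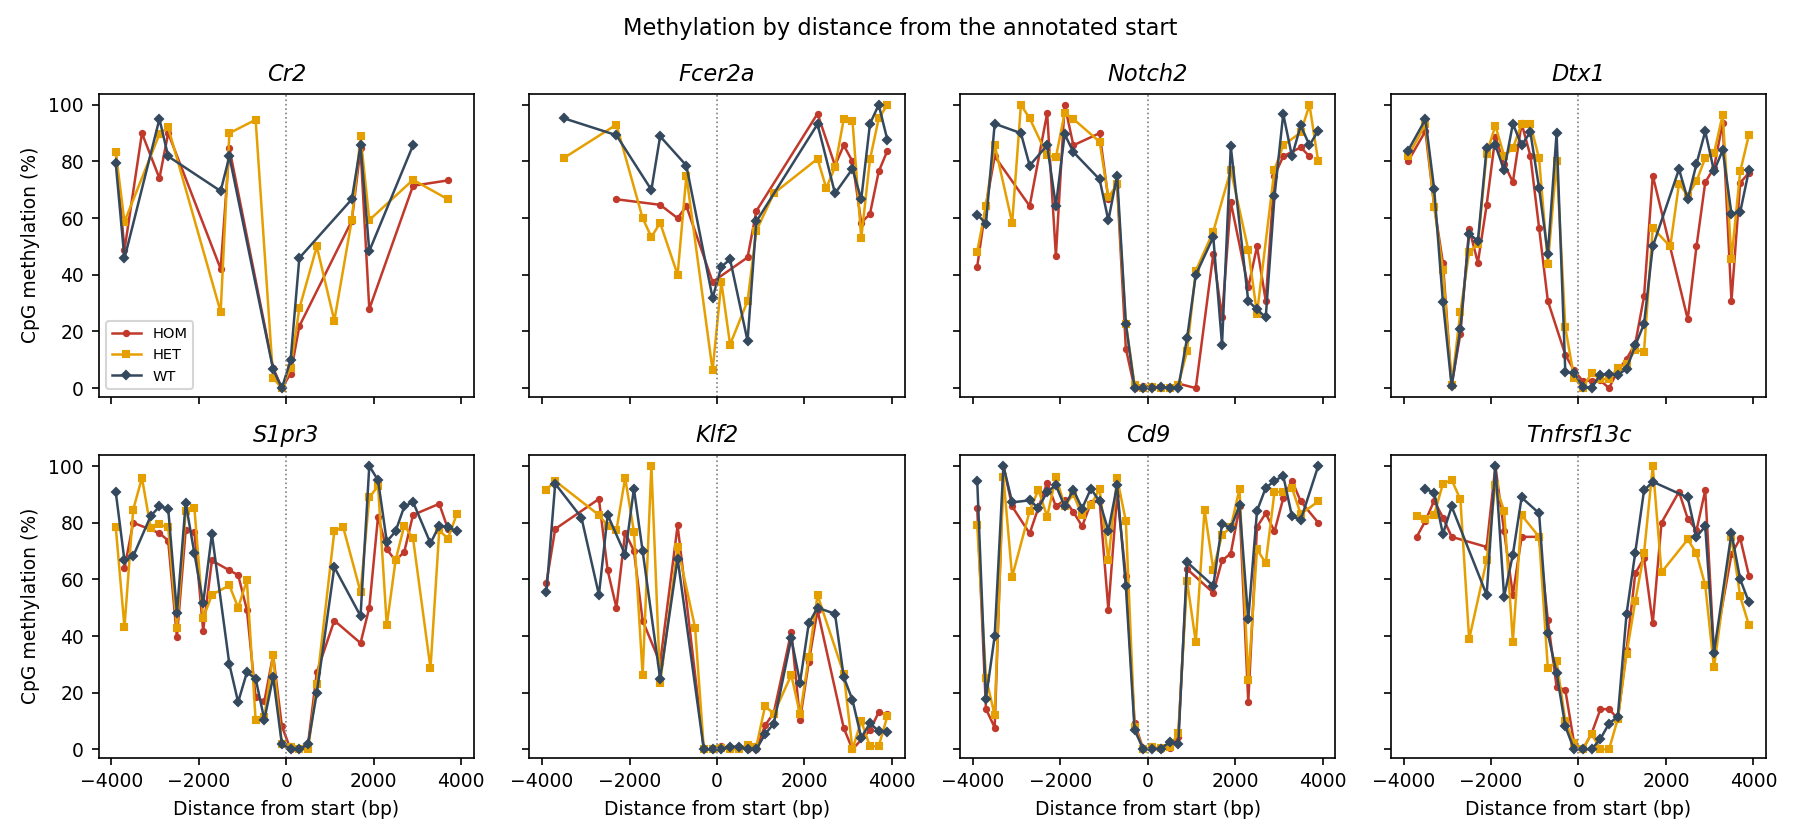
CpG methylation (%) in steps along the distance (bp) from the annotated start of 8 genes in HOM, HET and WT libraries, with the dotted line at the start. The level is low around the start of 7 genes. In Fcer2a the lines cross, and at the step from −200 bp HOM was at 37.5%, HET at 6.25% and WT at 31.8%, over 24, 48 and 22 CpG reads. At the step from 600 bp WT was the lowest, at 16.7% beside 46.2% in HOM and 30.8% in HET.

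Cr2 (chr1:195136811-195176880) encodes in the mouse both complement receptor 2, CD21, and complement receptor 1, and is most abundant on marginal zone B cells. Its start window had 21 of 257 methylated CpG reads in HOM (8.17%), 34 of 319 in HET (10.7%) and 34 of 290 in WT (11.7%). The levels were alike within counting error, with HOM minus WT at −3.55 points (−8.59 to 1.57). A run of 22 CpGs lay over the start and stood at 8.27%, 11.6% and 13.6% in HOM, HET and WT. The body was among the most methylated of the genome, above 84.0% of all bodies in HOM, 88.6% in HET and 89.3% in WT. Its levels were 83.4% in HOM, 87.2% in HET and 88.1% in WT, and the difference of −4.72 points between HOM and WT (−7.15 to −2.26; adjusted p = 0.000489, Fisher's exact test) stayed under 10 points. The far end was at 91.6%, 92.0% and 94.2%. The run with the most CpGs in the locus, 39 CpGs at chr1:195130806-195132265, lay outside the span at an end of the neighbouring gene Cr1l and was at 2.54%, 1.30% and 2.61% in HOM, HET and WT.

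Fcer2a (chr8:3680280-3694174) encodes CD23, the low-affinity receptor for IgE, which follicular B cells carry and marginal zone B cells largely lack. It is the CpG-poor start of the group, with 10 CpGs in its start window. That window had 28 of 59 methylated reads in HOM (47.5%), 38 of 124 in HET (30.6%) and 34 of 69 in WT (49.3%). HET was the lowest, and no difference was called, with adjusted p of 0.130 for HET minus WT (−18.6 points, −32.3 to −4.32) and 0.168 for HOM minus HET (16.8 points, 1.90 to 31.4) in Fisher's exact test. In a window of 2000 bp outside and 1000 bp inside both were called, at −15.6 points (adjusted p = 0.0346) and 13.7 points (adjusted p = 0.0482, Fisher's exact test). At the 3 CpGs of the printed promoter, 54, 116 and 167 bp before the start, methylated reads were 9 of 24 in HOM, 3 of 48 in HET and 7 of 22 in WT, too few to be tested. All 3 methylated HET reads lay at the CpG 54 bp before the start, and the other 2 CpGs had 0 of 33 in HET.

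The run over this start, chr8:3693313-3694340, was called. It holds 9 CpGs and had 45 of 93 methylated reads in HOM (48.4%), 37 of 138 in HET (26.8%) and 31 of 82 in WT (37.8%). HOM exceeded HET by 21.6 points (8.89 to 33.6; adjusted p = 0.0255, Fisher's exact test), and all 8 CpGs read in both libraries were higher in HOM. WT lay between them and was not called against either. With CpGs limited to those read at least 5 times in every library the difference was 19.6 points and was not called.

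The body and far-end window of Fcer2a were highly methylated. The body stood at 77.6% in HOM, 80.3% in HET and 82.5% in WT, and the far end at 92.3%, 92.2% and 93.9%. Upstream of the start, the flank chr8:3695175-3699174 had 169 of 231 methylated reads in HOM (73.2%), 206 of 266 in HET (77.4%) and 191 of 218 in WT (87.6%). HOM was lower than WT there, with a difference of −14.5 points (−21.6 to −7.14; adjusted p = 0.00242, Fisher's exact test), and 14 of 21 CpGs were lower and 3 higher in HOM. Flanks of all genes had a median difference of −3.25 points between HOM and WT. After levels were scaled to equal open sea, the CpGs far from islands, the difference at Fcer2a was −10.8 points and was not called. Of the alternative promoters inside the gene, the one starting at 3690861 was at 67.2%, 67.9% and 70.4% in HOM, HET and WT, and the one at 3690390 had 28 of 38, 39 of 42 and 26 of 27 methylated reads. The run with the most CpGs, 81 CpGs beyond the far end at an end of Trappc5, stood at 0.472%, 0.477% and 0.889%, and the flank around it at 15.7%, 15.3% and 17.6%. A run of 4 CpGs inside the span, at 19.4%, 15.96% and 39.3%, had too few reads to be tested.

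Cd1d1 (chr3:86995834-87012358) encodes CD1d, which presents lipids to NKT cells and is high on marginal zone B cells. Reads of Cd1d1 and its near-identical neighbour Cd1d2 may not be told apart, which makes its values uncertain. The lower-coordinate end stood at 56.2% in HOM (41 of 73 reads), 45.6% in HET (36 of 79) and 48.98% in WT (24 of 49), and the higher-coordinate end at 88.7%, 89.9% and 90.2%. Its deepest drop lay inside the span, in a run of 38 CpGs at chr3:86998692-87000037. That run had 13 of 495 methylated reads in HOM (2.63%), 26 of 909 in HET (2.86%) and 14 of 639 in WT (2.19%), with HOM minus WT at 0.44 points (−1.38 to 2.45). The body was at 58.0% in HOM, 52.7% in HET and 56.1% in WT. It was the only body of the 10 that was higher in HOM than in WT, by 1.89 points (−1.17 to 4.95), an interval that holds 0. HOM exceeded HET by 5.24 points (2.39 to 8.07; adjusted p = 0.000891, Fisher's exact test), less than the 10 points of a call.

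Notch2 (chr3:98013538-98150367), the receptor whose loss removes marginal zone B cells in mice, is the longest of the 10 genes and its values are the most precise. The start window had 105 of 1356 methylated reads in HOM (7.74%), 161 of 1715 in HET (9.39%) and 111 of 1329 in WT (8.35%). The run over the start spanned 128 CpGs, with levels of 1.47%, 2.93% and 2.09%. Both were alike within counting error between HOM and WT. The body, with 1767 CpGs, stood at 80.2% in HOM, 82.9% in HET and 82.0% in WT. HOM minus WT was −1.87 points (−2.63 to −1.11), a smaller drop than the median of −3.27 over all bodies. The far end was at 89.3%, 89.6% and 90.3%. Inside the gene lay 10 further runs of 4 to 14 CpGs, of which 9 could be tested and 0 was called. The greatest HET minus WT difference was 18.9 points in the run at chr3:98063954-98064117 (4.97 to 31.0; adjusted p = 0.125, Fisher's exact test), where the levels were 28.0% in HOM, 41.0% in HET and 22.1% in WT.

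Dtx1 (chr5:120680203-120711867) encodes Deltex, a regulator of Notch signalling and a known Notch2 target in marginal zone B cells. No other of the 10 genes held as many low-methylated runs. The 16 runs took 44.2% of the 855 CpGs of the locus, against a median of 17.004% over 20665 genes, and they are spread along the whole gene. The start window had 71 of 504 methylated reads in HOM (14.1%), 123 of 582 in HET (21.1%) and 98 of 496 in WT (19.8%). HOM minus HET was −7.05 points (−11.5 to −2.50; adjusted p = 0.0317, Fisher's exact test) and HOM minus WT −5.67 points (−10.3 to −1.02; adjusted p = 0.112), both under 10 points. The longest run, 105 CpGs from the start inward, pointed the other way, with 11.6% in HOM, 7.25% in HET and 7.82% in WT. The body was at 49.5%, 52.1% and 54.0%, and HOM minus WT was −4.49 points (−6.22 to −2.76; adjusted p = 1.61e-06, Fisher's exact test).

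Called runs of Dtx1 numbered 3, each in a different comparison. The run over the far end, chr5:120679700-120680556, which also meets an end of Rasal1, had 179 of 492 methylated reads in HOM (36.4%), 118 of 409 in HET (28.9%) and 74 of 288 in WT (25.7%). HOM exceeded WT by 10.7 points (3.93 to 17.1; adjusted p = 0.0365, Fisher's exact test), and of 25 CpGs 19 were higher and 4 lower in HOM. The window over the whole far end, in which this run lies, was at 44.4%, 45.3% and 39.2% and was not called. A run of 9 CpGs at chr5:120688404-120688940 had 20 of 103 methylated reads in HOM (19.4%), 57 of 156 in HET (36.5%) and 5 of 67 in WT (7.46%). HET exceeded WT by 29.1 points (17.7 to 37.9; adjusted p = 0.000397, Fisher's exact test). Most HET reads fell on the last 4 CpGs of this run, where HET stood at 35.9% to 42.9%, and at 1 of these CpGs WT had 0 reads. A run of 24 CpGs at chr5:120706579-120707175, centred 4792 bp inside the start, had 52 of 166 methylated reads in HOM (31.3%), 34 of 235 in HET (14.5%) and 30 of 149 in WT (20.1%). HOM exceeded HET by 16.9 points (8.56 to 25.2; adjusted p = 0.00326, Fisher's exact test). The difference was not even along the run. Its last 9 CpGs were at 25% to 85.7% in HOM and 0% to 21.4% in HET, whereas over its whole length 11 CpGs were higher and 8 lower in HOM. With the running level set below 30% instead of 50% the run was shorter and HOM minus HET was −2.48 points. With CpGs read at least 5 times in every library it was 11.1 points and not called (adjusted p = 0.191, Fisher's exact test).

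**Figure D3:**
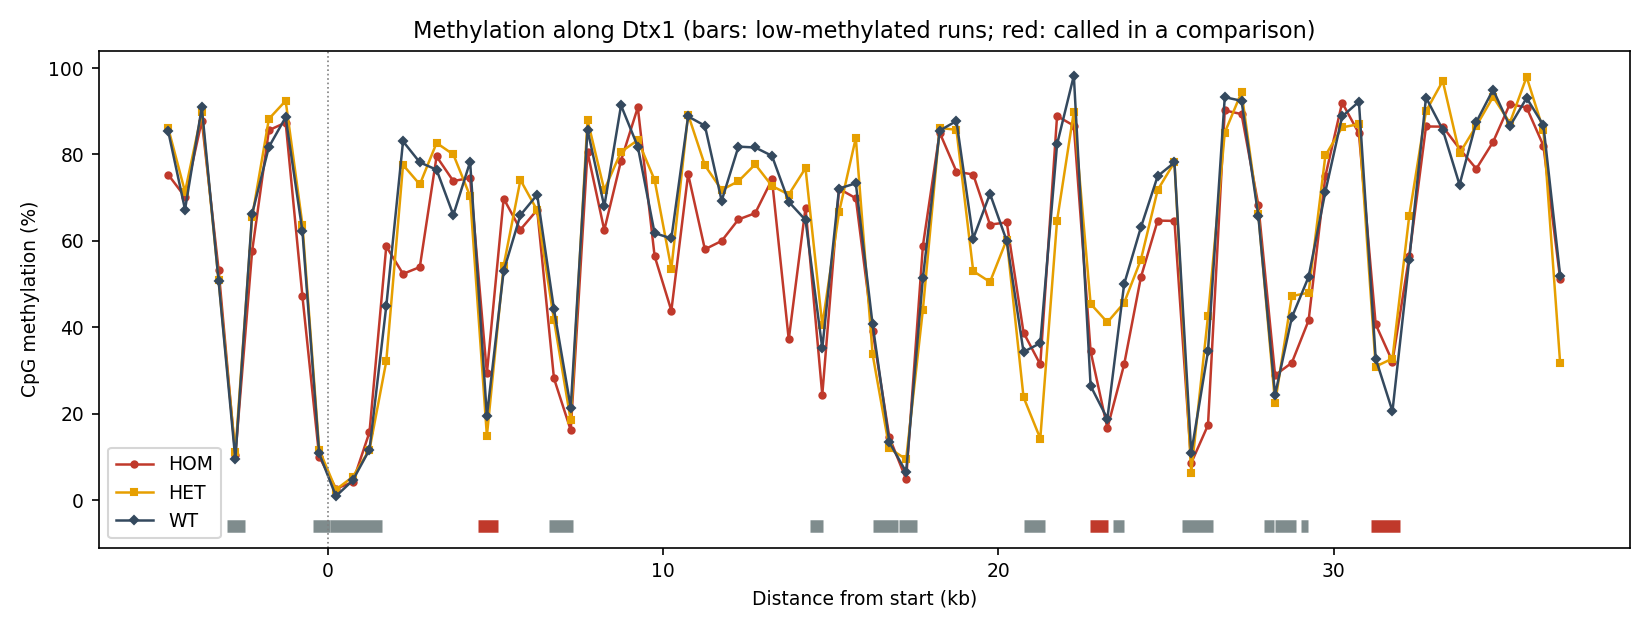
CpG methylation (%) in steps along Dtx1 by distance (kb) from its start in HOM, HET and WT libraries, with bars for the 16 low-methylated runs and in red the 3 called in a comparison. The troughs fall at the same places in all 3 libraries, and the HET line stands above the HOM and WT lines at the called run of 9 CpGs, where HET was at 36.5% and WT at 7.46%.

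S1pr3 (chr13:51408618-51422797) encodes a sphingosine-1-phosphate receptor found on marginal zone B cells. Its start window had 87 of 541 methylated reads in HOM (16.1%), 116 of 849 in HET (13.7%) and 51 of 420 in WT (12.1%). HOM was nominally the highest, with HOM minus WT at 3.94 points (−0.556 to 8.28). The run over the start, 64 CpGs, showed 17.5% in HOM, 15.1% in HET and 12.3% in WT, a difference of 5.21 points between HOM and WT (0.920 to 9.35; adjusted p = 0.148, Fisher's exact test). The body went the other way. It stood at 65.0% in HOM, 71.0% in HET and 70.7% in WT, with HOM minus WT at −5.66 points (−8.09 to −3.22; adjusted p = 2.13e-05, Fisher's exact test) and HOM minus HET at −6.02 points (−8.27 to −3.77), both under the 10 points of a call. The far end was at 85.4%, 92.7% and 89.7%.

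Klf2 (chr8:72319062-72321654) encodes the transcription factor that is known to keep B cells in the follicular pool and to govern their homing. It had the least methylated body of the 10 and one of the lowest in the genome, with 2.1%, 2.1% and 2.6% of all bodies below it in HOM, HET and WT. The body stood at 8.61% in HOM, 9.91% in HET and 12.7% in WT, and HOM minus WT was −4.09 points (−6.90 to −1.37; adjusted p = 0.00745, Fisher's exact test). The start window had 56 of 937 methylated reads in HOM (5.98%), 82 of 699 in HET (11.7%) and 39 of 451 in WT (8.65%), with HOM minus HET at −5.75 points (−8.68 to −2.99; adjusted p = 0.00164, Fisher's exact test). Of 77 CpGs read in both, however, 8 were higher and 3 lower in HOM, opposite to the sign of the pooled difference. A pooled level weights each CpG by its reads. The run over the start held 112 CpGs and 0.598%, 1.14% and 0.583% of its reads were methylated. The higher values of the start window came from CpGs outside that run. HOM minus WT was −2.67 points in the start window and not called, and of 78 CpGs 7 were higher and 2 lower in HOM. In a window of 2000 bp outside and 1000 bp inside HOM minus WT was −12.8 points and called (adjusted p = 4.53e-14, Fisher's exact test). The nearly unmethylated steps inside the start held more reads in HOM there, such as 289 against 100 in WT at the step from 200 bp. HOM was lower than WT at the step from 2000 bp before the start (70.1% against 92.0%). It was higher at the step from 1000 bp before the start (79.0% against 67.3%). The far end was at 22.3%, 27.6% and 31.3%, the lowest far end of the 8 genes with a known start, and 75.7% of the 301 CpGs of the locus lay in its 6 runs.

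Mzb1 (chr18:35647265-35650266) encodes a chaperone of the endoplasmic reticulum found in marginal zone B cells, B-1 cells and plasma cells. The lower-coordinate end stood at 40.2% in HOM (139 of 346 reads), 38.5% in HET (178 of 462) and 47.5% in WT (135 of 284), and the higher-coordinate end at 85.3%, 81.1% and 80.9%. Neither was called, but in a window of 2000 bp outside and 1000 bp inside HET minus WT at the lower-coordinate end was −10.7 points and called. The body had 272 of 793 methylated reads in HOM (34.3%), 196 of 774 in HET (25.3%) and 215 of 613 in WT (35.1%). HET was the lowest library, with HET minus WT at −9.75 points (−14.6 to −4.89; adjusted p = 0.000865, Fisher's exact test) and HOM minus HET at 8.98 points (4.45 to 13.4; adjusted p = 0.000322), both just under a call. HET was also the lowest library in both called runs. The run at chr18:35647972-35649108 had 72 of 346 methylated reads in HOM (20.8%), 54 of 350 in HET (15.4%) and 67 of 259 in WT (25.9%), and HET minus WT was −10.4 points (−17.0 to −3.97; adjusted p = 0.0440, Fisher's exact test). After scaling to equal open sea it was −9.88 points, and with a running level below 30% the shorter run had −6.003 points, both not called. With CpGs read at least 5 times in every library it was not called either (adjusted p = 0.0516, Fisher's exact test). The run at chr18:35649253-35649776, which meets an end of Prob1, had 96 of 268 methylated reads in HOM (35.8%), 54 of 268 in HET (20.1%) and 80 of 254 in WT (31.5%). HOM exceeded HET there by 15.7 points (8.09 to 23.0; adjusted p = 0.00342, Fisher's exact test), with 12 of 16 CpGs higher in HOM. With each CpG weighted equally the difference was 9.26 points and not called, and with a running level below 30% it was 16.1 points and not called. The run with the most CpGs, 257 CpGs beyond the higher-coordinate end at Prob1, was at 4.10%, 3.37% and 3.31%.

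**Figure D4:**
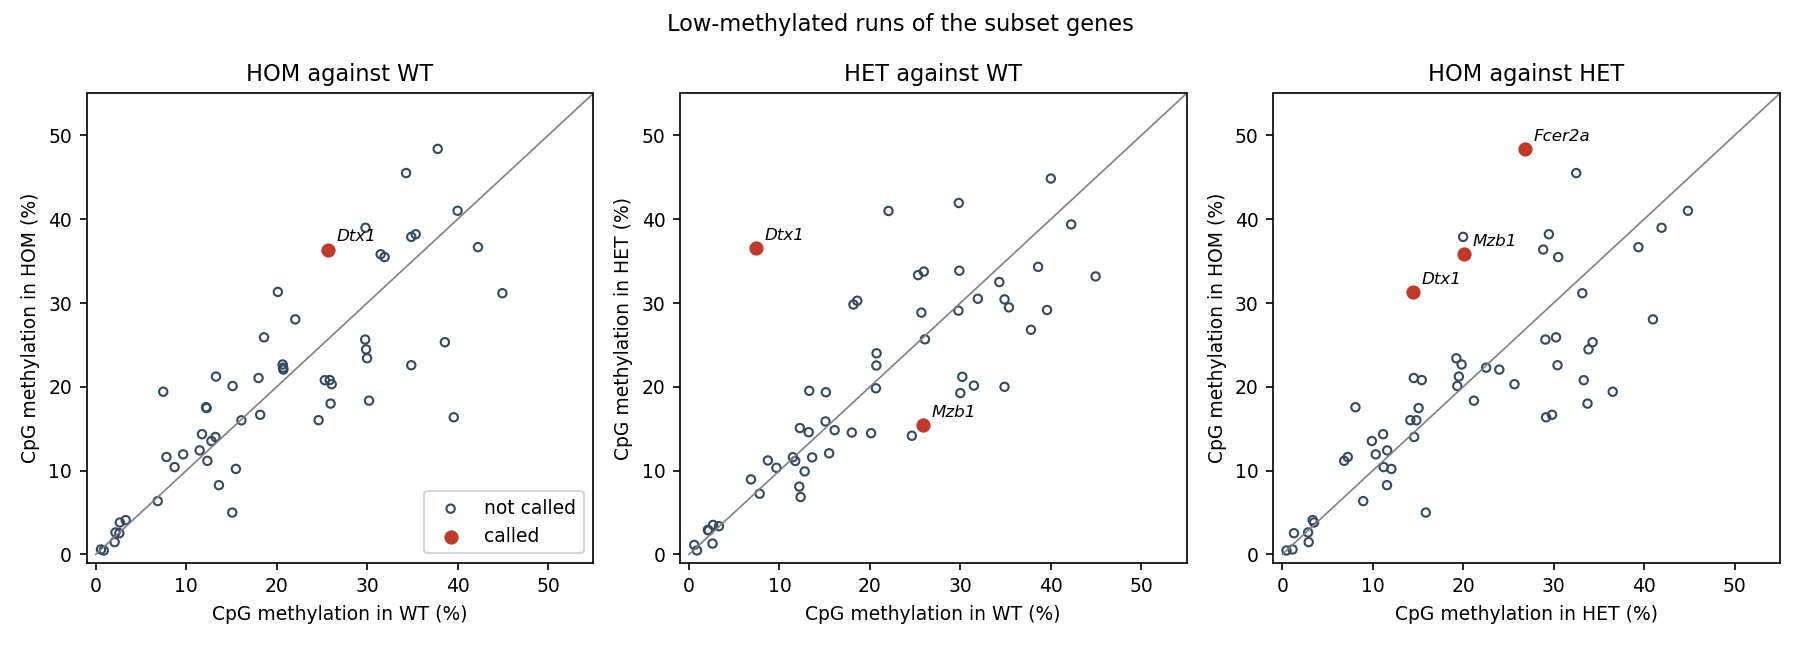
Level (%) of each tested low-methylated run of the 10 genes in 1 library (vertical axis) against another (horizontal axis), with the line of equal levels and filled points for called runs. The 56 runs scatter on both sides of the line, and the called ones are runs of Dtx1, Mzb1 and Fcer2a, 1, 2 and 3 in the panels for HOM against WT, HET against WT and HOM against HET.

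Cd9 (chr6:125460266-125494760) encodes a tetraspanin that marks marginal zone B cells, B-1 cells and plasma cells. Its start window had 199 of 1369 methylated reads in HOM (14.5%), 271 of 1738 in HET (15.6%) and 148 of 1112 in WT (13.3%), alike within counting error. The run over the start, 79 CpGs, was at 3.81%, 3.52% and 2.67%, and a second wide run inside the gene, 27 CpGs at chr6:125480486-125482646, was at 12.4%, 11.6% and 11.5%. The body stood at 67.6% in HOM, 66.4% in HET and 69.5% in WT. The far end had 393 of 513 methylated reads in HOM (76.6%), 463 of 556 in HET (83.3%) and 337 of 396 in WT (85.1%). HOM minus WT was −8.49 points there (−13.5 to −3.32; adjusted p = 0.0208, Fisher's exact test), under a call, and −11.9 points and called in a window of 500 bp outside and inside. The flank beyond that end was at 79.6% in HOM, 89.4% in HET and 89.3% in WT, with HOM minus WT at −9.75 points and HOM minus HET at −9.82 points, each just under a call.

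Tnfrsf13c (chr15:82221742-82224380) encodes the BAFF receptor. Its start window had 67 of 446 methylated reads in HOM (15.02%), 77 of 447 in HET (17.2%) and 42 of 304 in WT (13.8%), and the run over the start, 57 CpGs, was at 11.9%, 10.3% and 9.67%. Neither was called. The body, 40 CpGs at chr15:82222242-82223880, had 236 of 519 methylated reads in HOM (45.5%), 221 of 547 in HET (40.4%) and 257 of 464 in WT (55.4%). HET was lower than WT, with a difference of −15.0 points (−21.0 to −8.82; adjusted p = 3.31e-05, Fisher's exact test), with 18 CpGs lower and 5 higher in HET of 38 read in both. HOM minus WT was −9.92 points (−16.1 to −3.66; adjusted p = 0.00449, Fisher's exact test), just under a call, and called at −11.6 points when only CpGs read at least 5 times in every library were used. By single CpGs, however, HOM was not lower along the whole body, with 15 CpGs lower and 14 higher than in WT of 40 read in both. With each CpG weighted equally HET minus WT was −7.13 points and not called. The far end stood at 71.4%, 63.6% and 69.2% and was not called, but in a window of 2000 bp outside and 1000 bp inside HOM minus HET was 10.04 points and called. Tnfrsf13c lies on the chromosome of the mutation, 16610848 bp from it.

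**Figure D5:**
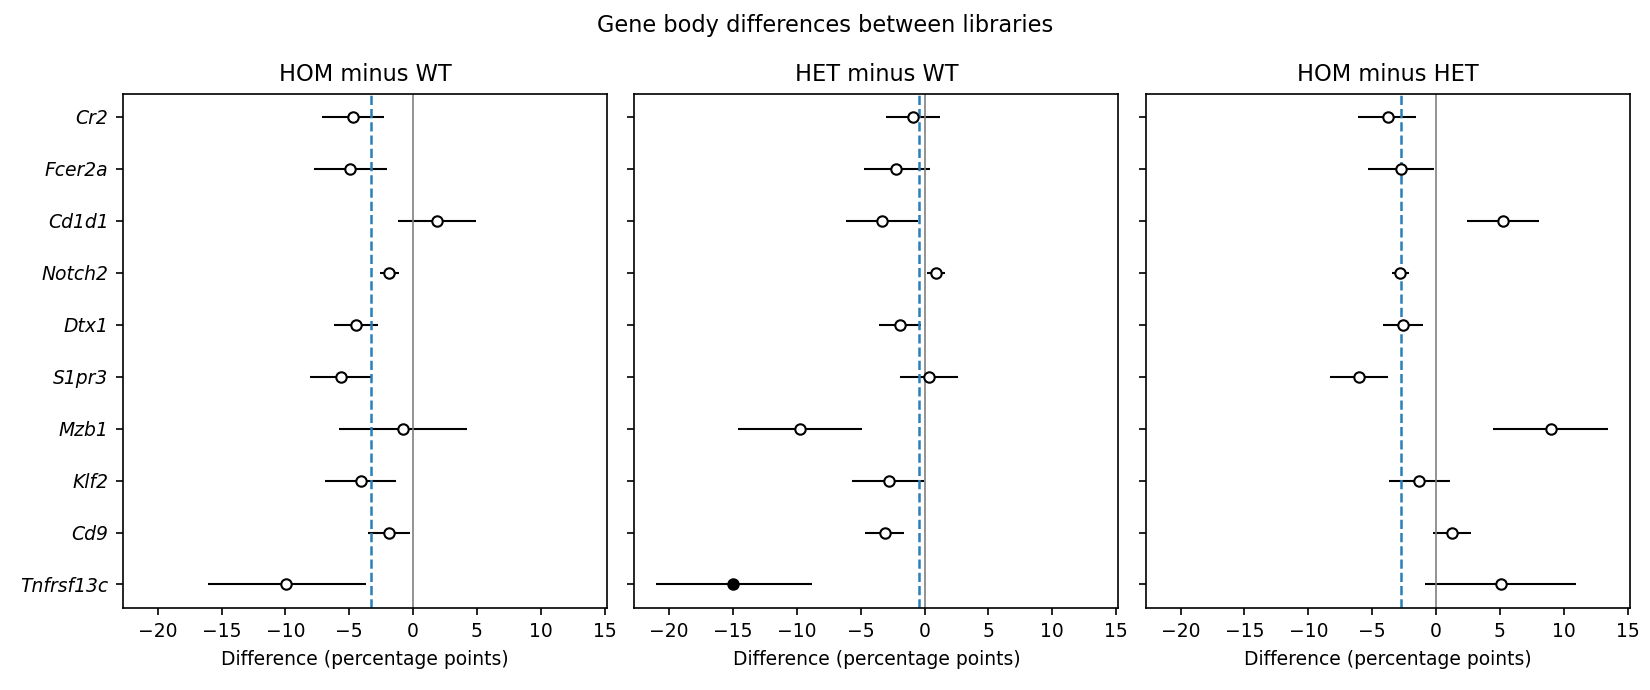
Difference in gene body methylation (percentage points) for HOM minus WT, HET minus WT and HOM minus HET, with 95% counting intervals, a dashed line at the median of all gene bodies and a filled point for the called body. In HOM minus WT 9 of the 10 bodies lie below 0, and the filled point is Tnfrsf13c in HET minus WT at −15.0 points.

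Most bodies of the 10 genes were lower in HOM than in WT, as were most bodies of the genome. In HOM minus WT 9 of 10 bodies were below 0, with a median of −4.29 points, beside −3.27 over 19066 bodies of which 86.6% were below 0. In HET minus WT the medians were −2.50 and −0.467 points. In HOM minus HET they were −1.94 and −2.73. After scaling to equal open sea the median over the 10 bodies was −1.23 points for HOM minus WT, −1.97 for HET minus WT and 0.0366 for HOM minus HET. Over all bodies the scaled medians were −0.0223, 0.150 and −0.125 points. The medians of the 10 bodies against WT thus stayed below those of the genome after scaling, and the cause was not tested. For the end windows the median HOM minus WT was −1.54 points beside −1.67 over all windows. After scaling it was 1.56 points for the 20 windows of the genes and −0.0268 over all, so the sign of this median depends on the scaling. For the runs the median was 0.781 beside −0.0824 points.

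Set in order of their level, the start windows of Klf2, Notch2 and Cr2 were the lowest in HOM at 5.98%, 7.74% and 8.17%, neighbours that did not differ beyond counting error. Dtx1, Cd9, Tnfrsf13c and S1pr3 followed at 14.1% to 16.1% in HOM, also without a step between neighbours, and Fcer2a at 47.5% stood apart. In HET and WT the same genes were lowest and Fcer2a again highest, and Dtx1 moved next to it with 21.1% and 19.8%. In gene bodies the order began with Klf2 and Mzb1 and ended with Cr2 in all 3 libraries.

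Genes of the Notch pathway, which include Notch2 and Dtx1, were called different at few of their ends. Of 50 end windows of 25 genes, HOM was called higher than WT in 2 and lower in 0, against 1.01% and 4.31% of all gene-end windows. HET was called higher than WT in 1 and lower in 0, against 1.27% and 1.39%, and HOM was called higher than HET in 0 and lower in 0, against 0.845% and 3.68%. Lfng, which encodes a glycosyltransferase that modifies Notch, was at 60.4% in HOM, 61.7% in HET and 32.3% in WT at its far end, a HOM minus WT difference of 28.0 points (16.7 to 38.3; adjusted p = 0.000137, Fisher's exact test). Hes5, a Notch target, was at 30.3%, 26.1% and 17.01% at its far end, 13.3 points higher in HOM than in WT (7.69 to 18.9; adjusted p = 0.000242, Fisher's exact test). The median HOM minus WT over the 50 windows was −0.89 points, beside −1.67 over all windows.

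In the BAFF receptor pathway, HOM was called higher than WT in 0 of 30 windows and lower in 4, where 1.01% and 4.31% of all windows were. Between HET and WT 0 were called, against 2.66% of all, and 2 were called lower in HOM against HET, as were 3.68% of all. With counts divided by the CpGs per read 0 windows of any list described here and below were called, a setting that also left few bodies, flanks and runs of the genome called. After scaling to equal open sea the lower calls in HOM against WT over all lists numbered 5, against 19 unscaled. The start of Nfkb2, whose product p100 is processed downstream of the receptor, was at 62.3% in HOM, 77.6% in HET and 77.7% in WT, a difference of −15.4 points for HOM minus WT. The far ends of Map3k14, the kinase NIK, at 82.2%, 88.5% and 94.4%, of Traf2 at 81.5%, 84.2% and 92.0%, and of Traf3 at 77.0%, 88.4% and 87.1% were the other windows called lower in HOM than in WT. The median was −1.75 points, close to that of all windows.

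Among 20 genes linked to marginal zone B cells, 7 of which are described above, HOM was called higher than WT in 1 of 40 windows and lower in 1, where 1.01% and 4.31% of all windows were. Between HET and WT 0 were called, against 2.66% of all, and 1 was called lower in HOM against HET, as were 3.68% of all. Both calls between HOM and WT were ends of Ebi3, a cytokine subunit gene, at 39.0%, 37.1% and 26.1% in HOM, HET and WT at the start and 55.1%, 58.5% and 65.9% at the far end. Among 16 genes linked to follicular B cells, which include Fcer2a and Klf2, HOM was called higher than WT in 0 of 32 windows and lower in 1. Between HET and WT 0 were called, against 2.66% of all. HOM was called higher than HET in 2 and lower in 2, where 0.845% and 3.68% of all windows were. The median HOM minus WT was −1.51 points for the marginal zone genes and −0.83 points for the follicular genes.

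Markers of other cells in the suspension also differed between the libraries. Ends of 15 B cell genes had pooled levels of 38.7% in HOM, 37.4% in HET and 43.6% in WT, and of 30 windows HOM was called lower than WT in 5 and higher in 0, and HET lower than WT in 6 and higher in 0. Of all windows 4.31% were called lower in HOM and 1.39% lower in HET against WT. HOM was called higher than HET in 3 of the 30 and lower in 1, where 0.845% and 3.68% of all windows were. With counts divided by the CpGs per read 0 of the 30 were called. Among them Blnk, an adaptor of the B cell receptor, was at 30.5%, 24.3% and 48.2% at its start and at 79.5%, 94.1% and 97.4% at its far end, and Blk at 49.5%, 59.6% and 64.9%. Ends of 17 T cell genes had pooled levels of 48.9%, 53.6% and 45.6%, and of 33 windows HOM was called higher than WT in 4 and lower in 2, HET higher than WT in 6 and lower in 0, and HOM lower than HET in 6 and higher in 0. Of all windows 1.01% were called higher and 4.31% lower in HOM against WT, 1.27% higher in HET against WT and 3.68% lower in HOM against HET, and with counts divided by the CpGs per read 0 of the 33 were called. Cd4 was at 63.6%, 55.9% and 46.9%, and Zap70 at 74.6%, 83.6% and 85.2%. By their pooled levels, B cell genes were thus more methylated in WT than in HOM or HET, and T cell genes less. The lists of other cells did not all go with the T cell genes. NK cell genes were highest in WT, at 29.1%, 30.1% and 32.01% in HOM, HET and WT. Stromal and endothelial genes were lowest in WT, at 57.8%, 59.7% and 56.1%. Erythroid genes were lowest in HOM, at 71.3%, 74.8% and 73.5%, as were dendritic cell and myeloid genes. Myeloid genes were pooled at 53.4%, 58.8% and 54.5%, with 1 of 30 windows called higher, S100a8 at 52.2%, 59.7% and 36.5%, and 1 lower, Fcgr1 at 73.6%, 86.7% and 85.6%, in HOM against WT. The other lists, at 16 to 18 windows each, had 0 higher and 0 lower (NK cells), 0 and 0 (dendritic cells), 0 and 1 (erythroid cells, Ermap) and 2 and 1 (stromal and endothelial cells, Kdr and Pdgfrb higher and Col1a1 lower) called in HOM against WT. Of all windows 1.01% were higher and 4.31% lower. In HET against WT these lists, in that order, had 0 and 1, 0 and 0, 0 and 0, and 0 and 1, and myeloid genes 2 and 1. Of all windows 1.27% were higher and 1.39% lower. In HOM against HET they had 1 and 1, 0 and 2, 1 and 2, and 0 and 1, and myeloid genes 0 and 1. Of all windows 0.845% were higher and 3.68% lower. The part of the cell mix in the differences at the 10 genes was not tested.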

How the data were processed

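Whole-genome bisulphite sequencing of splenic B cells gave, for 21875444 CpGs, the counts of methylated and of covering reads that the authors deposited, raw and without normalization per the file headers and values. The submitters' processing notes name the build mm10 and 2 sets of tools. One set was BWA 0.7.13, MethylDackel and Picard 2.3.0, the other Trim Galore 0.2.8 with Bowtie2, Bismark and Picard 1.91. Which set made these columns was not given in the sources used here. Blood samples were not analysed here, and 0 columns were left unmapped.

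RefSeq gave gene spans (GRCm38.p6), and its promoters gave starts and strands. Counts were summed over end windows, bodies, flanks and runs with Python 3.11.15, NumPy 2.4.6, pandas 2.3.3 and Numba 0.67.0. A region was tested where each library had 30 or more CpG reads over 3 or more CpGs, with Fisher's exact test (SciPy 1.17.1), adjusted by Benjamini and Hochberg over all regions of a kind. CpG islands were found from CpG positions alone, and open sea lies over 4000 bp from them. In simulated HOM against WT counts over 38824 gene-end windows, 59.5% of 200 windows lowered by 20 points and 88% of those lowered by 30 points were called, with 1 and 9 false calls. Each simulated CpG read was drawn independently at the pooled level of its window, and only windows above 20% were lowered. Linked CpGs and uneven depth within a window were not simulated, so the number of false calls in the real counts cannot be read from it. Precision follows depth, so a window of 59 CpG reads has an interval over 20 points wide.

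All 10 genes are named, with both ends, the body, the run with the most CpGs and every called run. Of each other list up to 4 called windows with the greatest difference between HOM and WT and at least 60 CpG reads in both are named, and some of these are not reported here. The genes and lists were chosen with earlier results of these data known. Alternatives changed read minimum, weighting, scaling, read linkage, size of difference, depth minimum, window, flank and run definition. The promoter window and read linkage for the lists were added after the data had been seen.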

Additional observations from a re-analysis of the deposited data

How the results depend on the processing

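No paired analysis was possible because the columns carry no replicate numbers and hold 1 library per genotype, and for the same reason no replicate could be left out. Dividing counts by the CpGs of a read left 0 called bodies, flanks and runs in every comparison, and 0 windows of the other lists. Undivided, 29, 21 and 27 of 342 list windows were called for HOM against WT, HET against WT and HOM against HET. Of all gene-end windows 5.32%, 2.66% and 4.53% were. The division also left few calls in the genome, such as 0.199% of all bodies in HET against WT. A difference of 5 points gave 1 and 2 end windows (HOM against WT, HOM against HET), where 8.95% and 8.16% of all were called. It gave 2, 2 and 3 bodies in the 3 comparisons, against 23.2%, 7.33% and 16.9% of all bodies. Flanks numbered 4, 1 and 3, against 18.1%, 6.33% and 15.1% of all flanks. A difference of 20 points left 0 bodies (HET against WT), 0 flanks (HOM against WT) and 0, 1 and 1 runs. Windows of 500 bp outside and inside called 1 end (HOM against WT, 3.59% of all). Windows of 2000 bp outside and 1000 bp inside called 1, 2 and 2, against 5.81%, 2.73% and 4.31% of all. At least 5 reads per CpG called 1 and 2 bodies against WT in HOM and HET, and equal weights of CpGs called 0 in HET. Scaling to equal open sea left 0 flanks in HOM against WT (2.26% of all) and 1 run in HET against WT (3.02% of all). For the lists it left 17 windows (12 higher, 5 lower, against 10 and 19 unscaled) in HOM against WT. In HOM against HET it left 17 (9 higher, 8 lower, against 7 and 20 unscaled). Flanks of 2 kb called 1 for HET against WT (1.22% of all) and 1 for HOM against HET (3.32% of all). A running level below 30% left 1 run for HET against WT (1.54% of all) and 0 for HOM against HET (2.26% of all). The Dtx1 run at chr5:120706579 was then at −2.48 points for HOM minus HET, where the shorter run omits CpGs. Segmenting on the library not compared called 2 runs for HOM against WT (4.96% of all). At the CpG-richer end alone 16 of 174 list windows were called for HOM against WT (5 higher, 11 lower). Of 20039 such ends in the genome 213 were higher and 751 lower. For HOM against HET 9 of the 174 were called (1 higher, 8 lower), and in the genome 164 were higher and 648 lower. The causes of the other changes were not tested. Single differences and counts for single gene lists were compared with the main setting together, and 1318 were classed as the same and 115 as moved. Of the single differences 24 lost and 21 gained a call, and 1 more, that Dtx1 run, reversed its sign and was not called. Depth limits windows such as that of Fcer2a, with 59, 124 and 69 CpG reads in HOM, HET and WT.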

Other observations

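Lists of other B cell stages differed at few gene ends. Among 10 genes of transitional and developing B cells, HOM was called lower than WT in 2 of 19 windows and higher in 0, HET lower than WT in 2 and higher in 0, and 0 were called between HOM and HET. Of all gene-end windows 4.31% were called lower in HOM and 1.39% lower in HET against WT. Rag2 and Rag1, which encode the recombinase of antigen receptor genes, lie next to each other, so their windows are neighbours. The Rag2 start was at 13.9% in HOM, 16.1% in HET and 29.1% in WT, a HOM minus WT difference of −15.2 points (−23.0 to −7.03; adjusted p = 0.00775, Fisher's exact test), and the Rag1 start at 27.0%, 30.2% and 38.7%. Among 12 genes linked to B-1 cells, HOM was called higher than WT in 1 of 24 windows and lower in 1, HET likewise in 1 and 1, and 0 were called between HOM and HET, where 1.01% of all windows were higher and 4.31% lower in HOM, and 1.27% higher and 1.39% lower in HET, against WT. The start of Fcrl5, an Fc receptor-like gene, was at 54.1%, 63.7% and 81.0% in HOM, HET and WT (HOM minus WT −26.9 points, −35.9 to −17.2; adjusted p = 1.77e-05 in Fisher's exact test), and that of Cd5, which T cells also express, at 53.6%, 44.3% and 40.2%. Among 10 plasma cell genes, 0 of 20 windows were called between HOM and WT or HET and WT, and 1 was called lower in HOM against HET. Of all gene-end windows 5.32%, 2.66% and 4.53% were called in HOM against WT, HET against WT and HOM against HET. In HOM against HET 3.68% of all were lower. Fisher's exact test called 0 of these windows once counts were divided by CpGs per read.

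Of the CpGs of the 10 loci read at least 8 times in every library, 1 was at or below 10% in a library and at or above 80% in another. It lies before the Klf2 start at chr8:72317066 and had 2 of 9 methylated reads in HOM, 0 of 20 in HET (up to 15%) and 16 of 19 in WT. This CpG was singled out after its values were seen.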
